A study of Mus musculus with 24 samples.

Results

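The 150 array probes described here gave a signal on every heart array far above that of every brain and kidney array. For each of the 25697 probes of the array, the gap was the lowest log2 raw signal over the 8 heart arrays minus the highest over the 16 brain and kidney arrays. The 150 probes of largest gap were taken, out of 497 probes with a heart gap of at least 1. By the same measure 692 probes had a brain gap and 358 a kidney gap of at least 1. The selected probes had gaps of 1.91 to 7.32 with a median of 3.11 on the log2 scale. Of these probes, 140 carried a gene symbol and stood for 119 genes. A further 10 probes are unnamed here, and 18 of the genes were measured by more than 1 of the probes (39 probes in all), so the probes are not independent of each other.

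The arrays come from a study of mice that carry a substitution in Kctd1, which encodes a repressor of transcription with a BTB domain. Heterozygous mice, labelled Kctd1L27N, were set against wild type mice, both on the C3HeB/FeJ strain and 18.5 weeks old. Total RNA of heart, brain and kidney from 4 heterozygous and 4 wild type mice was hybridised to 24 one-colour Illumina bead arrays, 1 array per mouse and tissue. The series design names 5 wild type mice, of which 4 were analysed. Heterozygotes keep a wild type allele in every cell, and the level of Kctd1 itself was not analysed here. A probe was taken as detected on an array where its deposited detection p-value was under 0.05, and 10692 to 12979 probes were detected per array.

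The heart beats through the sarcomere, in which myosin heads pull on actin filaments when calcium released from internal stores binds the troponin complex. The working muscle cell pays for each beat mainly by burning fatty acids in mitochondria, and creatine kinases carry the energy to the filaments. The atria also secrete natriuretic peptides, hormones that act on the kidney and blood vessels.

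The labelled tissues carried their markers. All 11 probes for cardiomyocyte markers were detected on all heart arrays, with a summed background-corrected signal of 68632 to 76550 in heterozygous and 70401 to 75077 in wild type hearts. Their sum was 89.4 to 119 in brain and 41.6 to 63.6 in kidney over both genotypes. All 5 atrial and all 4 ventricular marker probes were detected on every heart array. Of these markers, 10 of 11 cardiomyocyte, 4 of 5 atrial and 2 of 4 ventricular probes are members, so their values restate the rule of selection. Over both genotypes, the 4 neuron marker probes summed to 3772 to 4189 in brain, 11.5 to 19.4 in heart and 13.0 to 30.0 in kidney. The 4 kidney tubule marker probes summed to 18115 to 22062 in kidney, 13.8 to 58.4 in heart and 12.6 to 23.1 in brain. Of 8 skeletal muscle marker probes, 3 were detected on all heterozygous and 2 on all wild type heart arrays, while 5 were detected on 0 heterozygous and 4 on 0 wild type heart arrays. Their sum was 3380 to 4872 in heterozygous and 3826 to 4331 in wild type hearts, with Acta1, which heart muscle also makes, among those detected. In whole tissue, fewer cells of a type and less RNA per cell cannot be told apart.

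Promoters of 7 members are shown. Nppa, Myh6 and Actc1, at ranks 2, 4 and 5 of the gap, were picked after their values were seen as a hormone, a myosin and an actin of the heart, and Fabp3, Perm1, Adssl1 and Pgam2 are the 4 that differed by genotype in kidney. Each window runs from 250 bases before to 50 bases after the annotated start, from RefSeq on GRCm38.p6, 5′ to 3′. They lie at chr4:148000472-148000771 on the plus strand (Nppa), chr14:54966558-54966857 on the minus strand (Myh6), chr2:114052826-114053125 on the minus strand (Actc1), chr4:130308488-130308787 on the plus strand (Fabp3), chr4:156215677-156215976 on the plus strand (Perm1), chr12:112619797-112620096 on the plus strand (Adssl1) and chr11:5803747-5804046 on the minus strand (Pgam2). Capitals mark matches, on either strand, to the TATA box TATAAA, the M-CAT element CATTCC, the muscle E-box CAGCTG, the nuclear receptor half-site AAGGTCA, and the MEF2 and CArG consensus motifs.
Nppa: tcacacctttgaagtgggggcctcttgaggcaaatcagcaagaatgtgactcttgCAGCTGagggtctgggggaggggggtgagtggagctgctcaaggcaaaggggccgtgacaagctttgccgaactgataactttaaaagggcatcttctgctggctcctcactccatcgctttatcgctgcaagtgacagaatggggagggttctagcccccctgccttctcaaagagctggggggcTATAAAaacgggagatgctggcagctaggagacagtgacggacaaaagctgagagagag
Myh6: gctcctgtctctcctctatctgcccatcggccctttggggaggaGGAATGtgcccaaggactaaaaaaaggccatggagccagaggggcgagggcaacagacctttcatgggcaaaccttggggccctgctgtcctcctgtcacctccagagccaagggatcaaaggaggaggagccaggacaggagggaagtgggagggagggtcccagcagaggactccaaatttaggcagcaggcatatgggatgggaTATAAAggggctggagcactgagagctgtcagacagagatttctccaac
Actc1: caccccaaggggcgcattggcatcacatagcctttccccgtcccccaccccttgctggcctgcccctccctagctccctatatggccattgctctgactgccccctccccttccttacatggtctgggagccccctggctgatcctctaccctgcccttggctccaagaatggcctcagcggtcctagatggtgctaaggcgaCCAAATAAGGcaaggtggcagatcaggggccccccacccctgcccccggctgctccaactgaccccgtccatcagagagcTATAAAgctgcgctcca
Fabp3: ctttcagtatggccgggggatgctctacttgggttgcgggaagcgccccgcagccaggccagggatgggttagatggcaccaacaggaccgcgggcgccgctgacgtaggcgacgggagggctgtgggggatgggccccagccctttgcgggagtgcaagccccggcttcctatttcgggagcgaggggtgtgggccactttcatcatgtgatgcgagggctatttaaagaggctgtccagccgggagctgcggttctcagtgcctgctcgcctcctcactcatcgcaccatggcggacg
Perm1: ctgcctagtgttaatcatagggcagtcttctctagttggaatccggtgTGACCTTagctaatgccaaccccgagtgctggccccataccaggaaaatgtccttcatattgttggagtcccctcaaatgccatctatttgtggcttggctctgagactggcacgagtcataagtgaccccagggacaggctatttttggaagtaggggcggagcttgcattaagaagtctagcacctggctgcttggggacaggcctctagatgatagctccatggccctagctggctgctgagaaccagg
Adssl1: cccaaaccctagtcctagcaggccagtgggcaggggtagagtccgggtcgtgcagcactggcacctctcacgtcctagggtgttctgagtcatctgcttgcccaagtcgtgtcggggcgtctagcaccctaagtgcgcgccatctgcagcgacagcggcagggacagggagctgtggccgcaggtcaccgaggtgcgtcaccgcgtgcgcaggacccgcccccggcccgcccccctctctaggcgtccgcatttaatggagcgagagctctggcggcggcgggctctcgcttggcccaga
Pgam2: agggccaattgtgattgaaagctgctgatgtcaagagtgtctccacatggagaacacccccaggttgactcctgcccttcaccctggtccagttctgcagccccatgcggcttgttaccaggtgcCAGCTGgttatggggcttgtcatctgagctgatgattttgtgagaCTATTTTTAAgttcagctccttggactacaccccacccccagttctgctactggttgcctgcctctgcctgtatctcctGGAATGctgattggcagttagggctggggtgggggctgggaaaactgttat
Nppa held matches to the TATA box and the muscle E-box, and Myh6 to the TATA box and the M-CAT element. Actc1 held matches to the TATA box and the CArG box, the target motif of serum response factor. Counted from the annotated start, TATAAA began at base -9 in Nppa, and after the start at base 2 in Myh6 and 34 in Actc1. These are matches of sequence, and use of the sites was not tested. Pgam2 held an M-CAT element, a muscle E-box and a MEF2 motif, and Perm1 a nuclear receptor half-site. In the Fabp3 and Adssl1 windows none of the 6 motifs was spelled.

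Of the 119 genes, 99 had promoter windows, 127 in all, against 32851 windows of all genes of the same length. A CArG box was found in 8.66% of the members' windows and in 1.63% of all windows. A MEF2 motif was found in 7.87% of the members' windows and in 3.19% of all, an M-CAT element in 20.5% and 14.7%, and a muscle E-box in 26.8% and 16.3%. The shares lay closer for the TATA box, at 16.5% and 13.6%, and for the nuclear receptor half-site, at 4.72% and 4.72%. The MEF2 and CArG motifs can contain TATAAA, a gene can have several windows, and these shares are descriptions without a test.

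The 10 probes of largest gap stood for contractile proteins, a hormone and the energy supply of the muscle cell. Myl2, the ventricular regulatory light chain of myosin, had the largest gap. Its raw log2 signal was 14.34, 14.23, 14.25 and 14.26 in the 4 heterozygous hearts and 14.37, 14.39, 14.36 and 14.29 in the 4 wild type hearts. Over the 8 brain arrays it had a lowest, median and highest raw log2 signal of 6.73, 6.83 and 6.91, and over the 8 kidney arrays 6.61, 6.65 and 6.69. The heart arrays formed a narrow band with the genotypes overlapping, and no array of the other tissues came near it. Nppa encodes atrial natriuretic peptide. Its raw log2 signal was 14.24, 14.12, 14.10 and 14.12 in heterozygous hearts and 14.32, 14.24, 14.30 and 14.14 in wild type hearts. It was between 6.75 and 6.90 in brain and between 6.60 and 6.71 in kidney, so that all arrays outside the heart lay together at the low end.

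The other probes among these 10 had heart medians of 13.40 to 14.27 on the raw log2 scale. Myl3, the ventricular essential light chain, had a gap of 7.11. Myh6, the adult cardiac myosin heavy chain of the mouse, had a gap of 6.95, and Actc1, cardiac actin, one of 6.82. Mb, the oxygen store myoglobin, had a gap of 6.67. Both probes for Ckmt2, the mitochondrial creatine kinase of muscle, were among the 10, with gaps of 6.62 and 6.47. Tnnc1, the calcium-binding troponin subunit, had a gap of 6.50, and Csrp3, a muscle LIM protein of the Z-disc, one of 6.49. Tnnc1 was the 1 probe of the 10 detected on all 8 brain and all 8 kidney arrays, with raw log2 signals of 7.38 to 7.66 in brain and 7.00 to 7.42 in kidney. The 3 probes with the highest heart medians were those for Myl2, Tnnc1 and Nppa. The 3 with the lowest were probes for Nrap at 9.15, Cpt1b at 9.19 and Mov10l1 at 9.19 (raw log2).

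At the lower end of the selection the gap shrank slowly. The last 3 probes taken were for mitochondrial proteins, the respiratory complex subunits Ndufa8 (gap 1.93) and Atp5h (1.93) and citrate synthase, Cs (1.91). The next 3, which were not taken, were Rbm38 (1.91), Gpc1 (1.89) and Atp5g1 (1.88). All 6 were detected on all 8 heart arrays, and the threshold fell within a run of nearly equal gaps.

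All 150 probes were detected on all 8 heart arrays, but far fewer were silent elsewhere. Of the 150, 34 were detected on no brain and no kidney array, and 61 were detected on all 8 arrays of both tissues. The probes for Myh6, Actc1, Ckmt2, Csrp3, Ttn, Myl7, Nppb and Pln were among those with no detection outside the heart. On background-corrected and normalized values of the 24 arrays, the 74 probes detected on all 8 brain arrays had a mean in heart 5.13 to 244 times that in brain. The 24 probes detected on some brain arrays were at least 21.0-fold to at least 675-fold higher in heart, and the 52 detected on none at least 19.0-fold to at least 486-fold. Against kidney, the 65 probes detected on all 8 arrays had folds of 3.96 to 199. There the bounds were at least 16.7-fold to at least 408-fold for the 34 probes detected on some arrays and at least 17.5-fold to at least 649-fold for the 51 detected on none. These folds restate the rule of selection and carry no test. A bound used, on each brain or kidney array, the higher of the probe's own signal and the lowest signal among detected probes, and an offset of 16 in the values compresses folds of dim probes.

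The 150 probes took a larger share of the raw signal in heart than in brain or kidney, which restates the rule of selection. Raw signal includes background, which was not subtracted for these shares. The 150 probes took 8.63% to 8.98% of the summed raw signal on the heterozygous heart arrays and 8.73% to 8.91% on the wild type heart arrays. Outside the heart, their share was 0.429% to 0.444% in heterozygous brain and 0.438% to 0.441% in wild type brain. In kidney it was 0.446% to 0.453% in heterozygous and 0.439% to 0.457% in wild type mice. The genotypes overlapped in heart and in kidney and in brain.

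Contractile proteins were the largest of the groups read from lists. Of 37 probes on the array for 27 genes of the sarcomere and Z-disc, 26 probes for 20 genes were among the 150. Beside the myosins, actin and troponin C above, these were the light chains Myl4 (gap 5.90) and Myl7 (4.48), the giant spring protein titin, Ttn (6.25), and the titin cap Tcap (5.69). Myosin-binding protein C, Mybpc3 (5.25), alpha-actinin 2, Actn2 (5.18), and calsarcin 1, Myoz2 (5.00), followed. The intermediate filament desmin, Des (4.74), the LIM protein Fhl2 (4.43), the M-band proteins of Myom1 (4.23 and 2.88) and the small heat shock protein Cryab (3.29) lay lower. The LIM and PDZ proteins Pdlim5 (3.79 and 3.23) and Ldb3 (2.21) and the inhibitory troponin subunit Tnni3 (2.99) closed the group. Troponin I was thus placed at rank 79 although troponin C was at rank 8, and levels of different probes cannot be set against each other. Myh7, the slow myosin heavy chain, had a gap of 0.69 and was not taken, nor was the probe for the tropomyosin Tpm1, at -0.62.

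The gene lists were drawn up with earlier results of these data known, so their coverage is no result about a pathway. The list for energy transfer and oxygen storage names several muscle forms. Of its probes, 12 of 13, for 10 of 11 genes, were members. These included the muscle forms of cytochrome c oxidase subunits, Cox6a2 (gap 6.17), Cox8b (5.78) and Cox7a1 (4.77), and the glycolytic enzymes Eno3 (5.54) and Pgam2 (3.37). The cytosolic creatine kinase Ckm (4.90), the insulin-regulated glucose transporter Slc2a4 (2.01) and the ADP-ribosyltransferase Art1 (2.47) were also members. The 1 probe outside was that for muscle glycogen phosphorylase, Pygm, with a gap of 1.85. Of 17 probes for fatty acid use, 5 were members. They were the heart-type fatty acid binding protein Fabp3 (4.28), the carnitine palmitoyltransferase Cpt1b (3.99 and 2.16), the pyruvate dehydrogenase kinase Pdk4 (4.11) and the trifunctional protein subunit Hadhb (3.21). All 17 had a gap above 0, against 2725 of the 25697 probes of the array. Among the 17, Acadl, a long-chain acyl-CoA dehydrogenase, lay at 1.88 and 1.85 just outside the selection.

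For calcium handling, conduction and transcription, a smaller part of the listed probes was taken than for the sarcomere or energy transfer. The members are 150 of all 25697 probes, of which 2725 had a heart gap above 0. In these lists a gap above 0 was found for 13 of 30, 9 of 17 and 13 of 23 probes, in the same order. Of 30 probes for calcium handling, 4 were members: the histidine-rich calcium-binding protein Hrc (gap 5.50), the calcium pump regulators Sln (5.28) and Pln (3.83), and calsequestrin 2, Casq2 (3.18). The calcium pump itself, Atp2a2, had gaps of 1.64 and 1.69 and was not taken. Of 17 probes for channels and conduction, 2 were members, both for Popdc2 (4.54 and 3.89), a cyclic AMP binding membrane protein. Of 23 probes for cardiac transcription, 3 were members: 2 probes for the stress-responsive cofactor Ankrd1 (5.72 and 5.03) and 1 for the zinc finger factor Gata6 (2.38). Nkx2-5, the homeobox factor of heart development, had a gap of 1.14. All 3 probes for the natriuretic system were members, with Nppb, brain natriuretic peptide, at 4.29 and its processing enzyme Corin at 2.98.

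Not every member is a gene of the muscle cell. Both probes for Dcn, decorin, a proteoglycan that fibroblasts secrete, were among the 150 (gaps 3.13 and 2.55), as was its relative Lum (2.03). Acta1, the skeletal form of actin that heart muscle also makes, had a gap of 4.23. Named after their values were seen, further members were the small heat shock proteins Hspb6 (5.02), Hspb7 (4.06), Hspb8 (3.12) and Hspb1 (2.66), with their partner Bag3 (2.81). The caveolar proteins Cav1 (3.14), Cavin2 (2.68) and Cavin4 (2.58) and the lipid droplet proteins Plin4 (2.85) and Plin5 (2.40) were also members, chosen for naming in the same way.

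Sets of 150 probes chosen in mice of 1 genotype kept a gap of at least 1 in mice of the other genotype. When 150 probes were chosen on the wild type arrays alone and measured in heterozygous mice, all 150 had a gap of at least 1, with values of 1.47 to 7.33 and a median of 3.14. When the 150 were chosen on the heterozygous arrays and measured in wild type mice, all 150 again had a gap of at least 1, with values of 1.64 to 7.38 and a median of 3.26. Of these sets, 144 and 146 probes were among the 150 chosen on both genotypes. The 150 members themselves were chosen on all 24 arrays, so no mouse was left in which to repeat their gap.

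The level of the heart probes in the heart was compared between genotypes, which the selection did not use. In limma's moderated test on all 12004 probes detected in heart, 0 probes passed an adjusted p of 0.05 (0%), and 0 of the 150 members. At an unadjusted p under 0.05 there were 4 of the 150 members (2.67%), against 4.75% of all probes tested. The members' differences, heterozygous minus wild type, ran from -0.43 to 0.31 with a median of -0.003, against a median of -0.002 over all probes tested (log2). Of the members, 72 had a positive and 78 a negative difference. None of the 7 lists above had a probe that passed, and their median differences lay between -0.12 for calcium handling and 0.04 for cardiac transcription. A p that misses the threshold does not show that levels were equal. On the raw scale, 141 of the 150 members were lower in heterozygous hearts, with a median difference of -0.13, but so were 11547 of the 12004 probes tested, with a median of -0.10.

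The member with the smallest p in the heart was Ahnak, with the matrix proteoglycans Dcn and Lum next, and none passed. Ahnak, a giant scaffold protein of the cell cortex, had a normalized log2 level of 10.35, 10.36, 10.33 and 10.43 in heterozygous hearts and 10.10, 10.10, 10.09 and 9.95 in wild type hearts. The genotypes did not overlap, and the difference was 0.31 (SE 0.08, limma, adjusted p = 0.927). A probe for Ahnak outside the selection differed by -0.03 (SE 0.11). Dcn had levels of 10.65, 10.48, 10.29 and 10.30 in heterozygous hearts and 11.00, 10.78, 10.83 and 10.72 in wild type hearts. Again the genotypes did not overlap, with a difference of -0.40 (SE 0.10, limma, adjusted p = 0.927), while the other Dcn probe differed by -0.11 (SE 0.10). Lum had levels of 9.65, 9.28, 9.22 and 9.10 in heterozygous hearts and 10.14, 9.61, 9.73 and 9.47 in wild type hearts, which overlapped. Its difference was -0.43 (SE 0.15, limma, adjusted p = 0.927).

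Sums of markers of other cells are given beside these matrix probes. The summed signal of the 6 fibroblast marker probes, 2 of which are the Dcn probes, was 4936 to 5463 in heterozygous hearts and 5444 to 6571 in wild type hearts. That of the 7 smooth muscle marker probes was 4502 to 5069 in heterozygous and 5633 to 6719 in wild type hearts, without overlap. The 8 endothelium marker probes went the other way, with 2958 to 3277 in heterozygous and 2632 to 3092 in wild type hearts, which overlapped, as did the fibroblast sums. Their part in the result was not tested. None of these marker probes passed the threshold in the heart.

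The other probes named by the smallest p did not pass either. One of 4 probes for Acaa2, a thiolase of fatty acid oxidation, differed by -0.34 (SE 0.14), and the other 3 by -0.26, -0.14 and 0.01. Fhl2 differed by -0.18 and Cs by -0.15, both without overlap of the genotypes. Among the positive differences, Hspb7 differed by 0.21, 1 of the 2 Myh6 probes by 0.30 (SE 0.20), 1 of the 3 Csrp3 probes by 0.12 and the myeloid leukemia factor Mlf1 by 0.11. The second Myh6 probe, at rank 4, differed by -0.02 (SE 0.08). All of these had an adjusted p of 0.927 or above with limma.

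Heart levels also followed the number that the labels give each array. The 8 heart arrays were numbered in a run of 8, with heterozygous mice at places 2, 6, 7 and 8 and wild type mice at places 1, 3, 4 and 5, so number and genotype overlap in part. The labels do not say what the number stands for. With genotype in the fit, 146 of 12004 probes (1.22%) changed with the number at an adjusted p under 0.05 in limma, and 5 of the 150 members. At an unadjusted p under 0.05 there were 36 members (24.0%), against 17.5% of all probes tested. Of the members that passed, 3 rose and 2 fell with the number. Other measures differed between the ends of the run. The first array had 12649 detected probes and the eighth 11408, with a raw 95th percentile (log2) of 9.64 on the first and 9.17 on the eighth. Summed on the heart normalization, cardiomyocyte markers were 92590 on the first and 100673 on the eighth array, endothelium markers 3047 and 3823, and smooth muscle markers 8616 and 6416. The cardiomyocyte markers include 2 of the members that passed, the probes for Myh6 and Mybpc3, so that sum is not separate from the result. The part of these in the result was not tested.

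Both member probes for Pdlim5, which anchors kinases at the Z-disc, fell along the run. One had normalized log2 levels of 11.24, 11.22, 10.91, 10.59, 10.70, 10.46, 10.24 and 10.23 from the first to the eighth place. Its slope was -0.17 per array (SE 0.02, limma, adjusted p = 0.0136), and that of the second was -0.16 (SE 0.02, limma, adjusted p = 0.0173). Of the other 2 Pdlim5 probes, which were not members, one had a slope of 0.01 (limma, adjusted p = 0.937) and one of -0.08 (limma, adjusted p = 0.221). A Myh6 probe had levels of 10.49, 10.58, 10.63, 11.11, 11.11, 11.20, 11.25 and 11.51 in the same order, a slope of 0.16 (SE 0.02, limma, adjusted p = 0.0173). The brighter Myh6 probe, at rank 4, had a slope of 0.02, so probes of 1 gene disagreed. Mybpc3 had levels of 11.97, 12.13, 12.39, 12.36, 12.67, 12.61, 12.60 and 12.74, with a slope of 0.12 (SE 0.02, limma, adjusted p = 0.0354). One of 2 Myom1 probes had levels of 9.18, 9.29, 9.66, 9.75, 9.85, 9.97, 9.75 and 9.99, with a slope of 0.13 (SE 0.02, limma, adjusted p = 0.0379). The 5 probes stand for 4 genes of the sarcomere list, from which 26 of the 150 members come and of which 34 probes were tested for the number. In all 5 the highest and lowest levels lay at the ends of the run or next to them, which a choice by slope favours. Without the wild type array at the first place 0 members passed, as without the heterozygous array at the second. Without the heterozygous array at the eighth place 2 members passed, both for Pdlim5, and without the wild type array at the third or the fifth place 3 passed. With the number in the genotype fit, the difference of the Myh6 probe was -0.09, against 0.30 without it. That of Lum was then -0.15 (-0.43 without it), that of Dcn -0.25 (-0.40), that of the Acaa2 probe -0.09 (-0.34), that of Fhl2 -0.09 (-0.18) and that of one Csrp3 probe 0.08 (0.12). Ahnak was at 0.32 with the number and 0.31 without it.

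In kidney, 4 heart probes differed by genotype. Of the 150, 79 were detected on at least 4 of the 8 kidney arrays and tested, and 71 were not tested. In limma's test over 10976 probes, 30 passed an adjusted p of 0.05 (0.273%), and 4 of the 79 members. Of these, Fabp3, Perm1 and Adssl1 were lower and Pgam2 was higher in heterozygous kidneys. At an unadjusted p under 0.05 there were 12 of the 79 members (15.2%), against 8.52% of all probes tested. The median difference of the members was 0.008, against 0.001 over all probes (log2).

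Fabp3, which carries fatty acids to mitochondria, had normalized log2 levels of 7.61, 7.44, 7.49 and 7.74 in heterozygous kidneys, against 8.38, 8.13, 8.24 and 8.36 in wild type kidneys. Every heterozygous kidney lay below every wild type kidney, and Fabp3 fell by 0.71 (SE 0.11, limma, adjusted p = 0.0082). Perm1 is a muscle regulator of genes for mitochondrial metabolism that acts with the coactivator PGC-1. It had levels of 4.95, 4.84, 4.80 and 4.83 in heterozygous kidneys, against 5.37, 5.52, 5.47 and 5.33 in wild type kidneys, near the lower end of the scale but detected on all 8 arrays. The genotypes did not overlap, and Perm1 fell by 0.57 (SE 0.09, limma, adjusted p = 0.0183).

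Adssl1, the muscle adenylosuccinate synthase of the purine nucleotide cycle, had levels of 7.16, 6.79, 6.85 and 6.95 in heterozygous kidneys, against 7.85, 7.73, 7.68 and 7.38 in wild type kidneys. These did not overlap, and the probe fell by 0.72 (SE 0.12, limma, adjusted p = 0.0195). The second Adssl1 probe among the 150 had a difference of -0.49 (SE 0.14) with no overlap of the genotypes. It did not pass (limma, adjusted p = 0.253). Another Adssl1 probe, outside the selection, was detected on no kidney array and was not tested there. Pgam2, the muscle phosphoglycerate mutase of glycolysis, had levels of 7.63, 7.95, 7.67 and 7.87 in heterozygous kidneys, against 7.20, 7.08, 7.28 and 7.19 in wild type kidneys. Its genotypes did not overlap either, and Pgam2 rose by 0.59 (SE 0.11, limma, adjusted p = 0.0275).

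The 4 results were not equally firm. Fabp3 passed under all 18 alternatives tried, with adjusted p of 0.00269 to 0.0472 in limma. With the array number as a covariate Fabp3 was the 1 member that passed, and Perm1, Adssl1 and Pgam2 had differences of -0.53, -0.56 and 0.53 (limma, adjusted p = 0.104, 0.118 and 0.148). Fabp3 was again the 1 member that passed without heterozygous kidney 2, 3 or 4 or without wild type kidney 2 or 3. Without wild type kidney 1, Fabp3 and Perm1 passed. Over the 8 fits that each leave out 1 kidney, the differences were -0.54 to -0.60 for Perm1, -0.66 to -0.82 for Adssl1 and 0.54 to 0.64 for Pgam2. Perm1 did not pass without background correction, where its difference was -0.17 (limma, adjusted p = 0.0991). With an offset of 50 its difference was -0.29, which did not pass either (limma, adjusted p = 0.0588). Adssl1 did not pass without background correction. Neither Adssl1 nor Pgam2 passed with all 24 arrays normalized together or without the detection filter. Of the 18 alternatives, Perm1 missed the threshold in 8, Adssl1 in 10 and Pgam2 in 9.

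The 7 list groups gave 2 of these calls, Fabp3 among 12 tested probes for fatty acid use and Pgam2 among 7 for energy transfer. The sarcomere list had 8 probes tested in kidney and 0 that passed. Of 8 skeletal muscle marker probes, only Pvalb was tested in kidney. Pvalb encodes parvalbumin, a calcium buffer of fast muscle that kidney tubule cells also make. Its levels were 9.54, 9.50, 9.35 and 9.47 in heterozygous kidneys and 10.63, 10.60, 10.62 and 10.59 in wild type kidneys, a fall of 1.14 (SE 0.09, limma, adjusted p = 5.23e-05). Of the 8 skeletal muscle probes, 5 were detected on 0 heterozygous and 6 on 0 wild type kidney arrays. The summed signal of 4 kidney tubule marker probes was 19075 to 22062 in heterozygous and 18115 to 21917 in wild type kidneys, which overlapped. Endothelium markers summed to 693 to 734 in heterozygous and 769 to 954 in wild type kidneys, without overlap, and the 2 blood marker probes to 7332 to 9779 in heterozygous and 9357 to 12134 in wild type kidneys, with overlap. Atrial markers, of which 1 of 5 probes was tested, summed to 69.0 to 82.8 in heterozygous and 54.1 to 63.5 in wild type kidneys. The part of these lists in the result was not tested.

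The genotype difference of these probes was tested between tissues. A probe entered if detected on at least 4 of the 8 arrays of at least 1 tissue, so all 150 members entered through the heart. Of the 150, 71 were not tested in kidney alone and 63 not in brain alone, where a difference may lie below background. In a limma F test of the interaction over 14835 probes, 47 passed an adjusted p of 0.05 (0.317%). Of the members, 4 of 150 passed, the same 4 as in kidney. The kidney arrays are those of the kidney test, so the results are not separate. Perm1 was detected on no brain array. The difference in heart minus that in kidney was 0.67 (SE 0.12) for Fabp3, 0.70 (SE 0.14) for Perm1, 0.67 (SE 0.13) for Adssl1 and -0.62 (SE 0.12) for Pgam2. Their limma adjusted p of interaction were 0.00863, 0.0297, 0.0174 and 0.0146. In the same fit the difference in kidney was -0.69 for Fabp3, -0.64 for Perm1, -0.71 for Adssl1 and 0.58 for Pgam2. In heart it was -0.02 for Fabp3, 0.05 for Perm1, -0.04 for Adssl1 and -0.04 for Pgam2, and the genotypes overlapped in heart for all 4. Leaving out heterozygous mouse 2 or 3 left 0 members in this test. Fabp3 alone passed without heterozygous mouse 4 or without wild type mouse 2 or 3, and Perm1 alone without wild type mouse 1.

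In brain no heart probe differed by genotype past the threshold. Of the 150, 87 were tested and 63 were not. In limma's test over 12608 probes, 0 passed an adjusted p of 0.05 (0%), and 0 members. At an unadjusted p under 0.05 there were 7 of the 87 members (8.05%), against 7.1% of all probes tested. The leading member was Tnnc1, with normalized log2 levels of 6.50, 6.79, 6.76 and 6.73 in heterozygous brains and 6.27, 6.49, 6.43 and 6.33 in wild type brains. The genotypes did not overlap, and the difference was 0.32 (SE 0.09, limma, adjusted p = 0.511). The members had a median difference of 0.005 in brain, against -0.001 over all probes tested.

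Outside the heart, the probes were divided between kidney and brain. On the 12 wild type arrays, 10617 of 15245 probes (69.6%) differed between kidney and brain at an adjusted p under 0.05 in limma, and 78 of the 150 members. Of the 78, 49 were higher and 29 lower in kidney, against 5292 higher and 5325 lower among all probes that passed. With arrays shifted to a common median the members split 40 to 39, against 3482 higher and 6997 lower among all probes. That scaling moves the median of all probes to -0.20 (log2), against 0.00 in quantile-normalized values. Of the 98 members detected on at least 2 wild type arrays of kidney or of brain, 77 passed, and of the other 52, which entered the fit through the heart, 1 passed. A member detected only in the tissue where it is high had to differ, so neither count was read against the share of all probes.

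The largest positive difference among the members was that of Idh2. Idh2, the mitochondrial NADP-dependent isocitrate dehydrogenase, had normalized log2 levels of 9.63, 9.31, 9.37 and 9.46 in wild type kidneys and 6.65, 6.71, 6.61 and 6.26 in wild type brains, a difference of 2.89 (SE 0.11, limma, adjusted p = 1.08e-13). Pgam2 differed by 2.68, Cox7a1 by 2.27, Acadvl, the very long-chain acyl-CoA dehydrogenase, by 2.17, Etfdh, which passes electrons from fat oxidation to ubiquinone, by 2.09, and the ribosomal protein Rpl3l by 1.89. A probe that is unnamed here differed by 2.12. All of these kept their sign with arrays shifted to a common median or with no background correction.

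Among the members lower in kidney was Myl1, a fast-muscle myosin light chain. Its normalized log2 levels were 4.27, 4.52, 4.33 and 4.29 in wild type kidneys and 7.19, 7.05, 7.19 and 7.10 in wild type brains, and it was not well above background on any of the 4 wild type kidney arrays. Against the lowest detected signal of those arrays, Myl1 was at least 5.37-fold lower in kidney (limma, adjusted p = 2.81e-14). Both others named here were detected on all 4 wild type arrays of each tissue: the brain form of glycogen phosphorylase, Pygb, differed by -2.40 and the phosphodiesterase anchor Pde4dip by -2.24. The 3 members with the highest raw signal outside the heart were Pde4dip, with a highest raw log2 signal of 10.24 in brain, Ccng1, a cyclin that responds to p53, at 9.89 in kidney, and Adssl1 at 9.80 in brain. In the heart the same probes lay at 12.92 to 13.29, 11.82 to 12.23 and 11.81 to 12.22.

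How the members' spread between mice compared with that of other probes depended on the scale. The rule takes the lowest heart signal of a probe, which favours probes of small spread in heart. Within genotype, the SD over heart arrays was 0.031 to 0.387 on the normalized log2 scale, with a median of 0.115, against 0.152 over all 12004 probes tested. On the raw log2 scale the order was the other way, with a median SD of 0.173 for the members and 0.107 for all probes. The 3 smallest SDs belonged to Myl2 (0.031), Tnnc1 (0.033) and Nppa (0.039), the brightest of the members. On the raw scale their SDs were 0.045 for Myl2, 0.087 for Tnnc1 and 0.073 for Nppa, and quantile normalization gives the brightest probes the same few values on every array. The 3 largest belonged to the 2 Pdlim5 probes (0.387 and 0.368) and the Myh6 probe (0.358) whose signal followed the array number.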

How the data were processed

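Total RNA of 24 samples was measured on Illumina bead arrays. The deposited table holds intensity values and a detection p-value per probe and array, which are not normalized, per the file headers. A second deposited table holds the authors' normalized intensity values, used as an alternative, and its normalization is not given in the sources used here. GenomeStudio 2011.1 is named in the submitters' processing notes. Having 4 mice per genotype limits the precision. Replicates within a tissue are separate mice, per the labels.

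Members and gene lists were chosen with earlier results of these data known. Named members were those of largest gap, at the threshold, that passed a fit, of smallest p in the heart, of extreme SD or level, or in a list. Gene names came from the platform table (23978 of 25697 probes) and the RefSeq table of GRCm38.p6, in which the gene identifiers of all 140 named members were found.

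Intensities of each tissue were background-corrected with detection p-values (neqc, offset 16), quantile-normalized and taken to log2 in limma 3.58.1 (R 4.3.3). Probes detected on 4 or more of 8 arrays entered a linear model (lmFit, eBayes), and p-values were adjusted by Benjamini-Hochberg across every probe fitted. The fits were tested on simulated data. Kidney and brain of the same mice entered without a mouse term, and the deviations of their wild type arrays correlated at -0.01 to 0.13.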

Additional observations from a re-analysis of the deposited data

Results flagged for a closer look

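In the heart, 60 groups of 4 arrays were looked at for an array far from the other 3 in the normalized level of a named member, and 7 were found, where chance alone gives about 1 in 20 groups. The measure is the gap to the nearest array divided by the range. Among heterozygous hearts these were Acaa2 (0.928, with 11.14 in heterozygous heart 1 against 10.52 to 10.56 in the others), Cs (0.875, with 11.27 in heterozygous heart 4 against 11.39 to 11.40), Mb (0.831, with 13.91 in heterozygous heart 2 against 13.79 to 13.81) and Tnnc1 (1, with 14.30 in heterozygous heart 1 against 14.25). Among wild type hearts they were Ahnak (0.911, with 9.95 in wild type heart 4 against 10.09 to 10.10), Acaa2 (0.869, with 11.25 in wild type heart 1 against 10.94 to 10.98) and Nppa (1, with 14.26 in wild type heart 3 against 14.18). For Tnnc1 and Nppa the other 3 arrays share 1 value from the quantile step. For Acaa2 the high arrays of both genotypes are those at the first and second places of the heart run.

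The genotype difference of 4 members differed between heart and kidney in the interaction test. Heart minus kidney, it was 0.697 for Perm1, 0.672 for Adssl1, 0.673 for Fabp3 and -0.618 for Pgam2.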

How the results depend on the processing

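Of the 150 members, 122 to 150 were chosen again under each of 15 other ways of measuring the gap. In heart and in brain, 0 members passed by genotype under all 18 alternatives. The difference of the Myh6 probe in heart turned to -0.0856 once the array number was in the fit. In kidney, 4 members passed as reported, 2 without background correction, 2 with all 24 arrays normalized together, 2 when probes were not filtered on detection, 1 once the array number was in the fit, and 1 to 5 when each array was left out. Over all probes the 30 calls in kidney became 15 without background correction, 14 without the filter, 18 with the array number and 49 with array weights. In the interaction test, 4 members became 1 with the array number (47 and 12 of all probes) and 0 to 4 without 1 mouse at a time. For the array number in heart, 5 members became 13 without genotype in the fit, 22 without background correction, 42 with arrays shifted to a common median, 0 for arrays 1 to 4 against 5 to 8, 0 without the first and last array (over all probes, 146 became 506, 437, 3092, 0 and 2), and 0 to 4 without 1 array at a time. The counts of kidney against brain stayed between 66 and 79.

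With the replicate number of the labels as a replicate block, 0 members passed in heart, 0 in brain and 4 in kidney. Deviations of same-numbered heterozygous and wild type mice correlated at -0.04 to 0.34 in heart, 0.01 to 0.09 in brain and 0.01 to 0.29 in kidney. In each tissue 2 of 4 heterozygous arrays correlated best with their own number. Whether these numbers pair the mice was not tested. The mouse as a block left 4 members in the interaction test and 78 in kidney against brain. The cause of these shifts was not tested. Members not above background in brain or kidney could show no genotype difference there.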
